A study of Mus musculus with 27 samples.

Results

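The genes examined were 8 genes known from fat cells, read for signs of fat tissue lying around the heart: Adipoq, Plin1, Cidec, Cidea, Ucp1, Retn, Lep and Car3. They were looked up by symbol in the raw count tables of whole hearts and of cardiac fibroblasts, each of which has 22855 gene rows. Rows were found for 3 of the 8, Adipoq, Cidea and Car3. No row matched the other 5 genes, Plin1, Cidec, Ucp1, Retn and Lep, under these or older symbols, and they were not analysed here.

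RNA came from C57Bl/6 mice with no genetic change or treatment named in the labels, of 5 ages, from postnatal day 1 through 4 weeks, 14 weeks and 1 year to 1.5 years. There were 15 whole heart libraries, 3 at every age, and 12 libraries of cardiac fibroblasts sorted by flow cytometry for PDGFRα. The fibroblast libraries numbered 3 at postnatal day 1 and at 4 weeks and 2 at each later age. For cell isolation the study kept the ventricles and took off the atria and valves, and its methods do not say how fat around the heart was handled in the whole heart samples.

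Fat cells store triglyceride in a large droplet and release hormones into the blood. Adipoq encodes adiponectin, the most abundant of these hormones, and Lep and Retn encode leptin and resistin. Plin1 encodes the protein that coats the fat cell's droplet and gates its breakdown, and Cidec and Cidea encode relatives that enlarge droplets by passing lipid between them. Cidea and Ucp1, the uncoupling protein that turns mitochondrial fuel into heat, are known from brown fat. Car3 encodes a cytosolic carbonic anhydrase that is abundant in fat cells and also in liver and slow skeletal muscle. Of the 3 genes that could be measured only Adipoq is made almost entirely by fat cells, so among them its reads are the most direct sign of fat tissue RNA in a heart sample.

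Total counts ranged from 46091271 to 67984404 per whole heart library and from 54615898 to 76758831 per fibroblast library. Levels are given as CPM, a gene's counts scaled to a library total of 1000000, and 3 counts were taken as the limit of detection. This limit corresponded to between 0.0441 and 0.0651 CPM in whole hearts and between 0.0391 and 0.0549 CPM in fibroblasts and covers counting error only. The summed level of 5 cardiomyocyte genes was 39385 to 63981 CPM in whole hearts and 10.4 to 684 CPM in fibroblasts. That of 5 fibroblast genes was 504 to 1962 and 15773 to 41123 CPM, so both tissues carried the markers of their labels. The sorted libraries also held markers of other cells. For 4 endothelial genes the sum was 334 to 920 CPM in whole hearts and 109 to 1373 CPM in fibroblasts. For 4 macrophage genes it was 44.7 to 269 and 10.6 to 272 CPM. The labels do not give sex. Xist, transcribed from the inactive X chromosome, was at most 0.490 CPM in the whole hearts of 14 weeks and 1 year and at least 6.55 CPM at the other ages. The Y-linked Ddx3y was at most 0.392 CPM at 1.5 years and at least 1.73 CPM at every other age. Hearts of 14 weeks and 1 year thus shared Ddx3y with nearly no Xist, and the markers did not switch between these ages. They switched from 1 to 1.5 years, so age and sex cannot be told apart in any comparison with 1.5 years. Younger hearts held both markers, so sex may also differ between them and the hearts of 14 weeks and 1 year. The fibroblast libraries showed the same order of markers by age.

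Adipoq (ENSMUSG00000022878.5, chromosome 16, 23146536 to 23158028 on the plus strand of GRCm38) was low in whole hearts and had reads in only part of them. It was above 3 counts in 8 of the 15 whole hearts and at 0 counts in the other 7. Its level ranged from 0 to 1.71 CPM with a median of 0.106 CPM, and the highest library held 111 reads of it. At postnatal day 1 the 3 libraries had 0, 0 and 7 counts, the last of which was 0.106 CPM. At 4 weeks they had 57, 59 and 0 counts, or 0.852, 0.868 and 0 CPM. The reads were therefore present in some replicates and absent in others at both ages.

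At 14 weeks, Adipoq had 59, 0 and 0 counts, so that 1 heart was at 0.915 CPM beside a pair with none. At 1 year it had 76, 99 and 15 counts, or 1.29, 1.71 and 0.283 CPM, the only age at which every whole heart exceeded the limit of detection. At 1.5 years it had 0, 0 and 111 counts, and the one heart with reads stood at 1.63 CPM. The libraries of 1 year were above those of postnatal day 1, a pair of ages that was not tested and at which 56.3% of the 17995 genes kept for testing had libraries that did not overlap in one direction or the other. All other pairs of ages overlapped. The mean was 0.0353 ± 0.0611 (SD, n = 3) CPM at postnatal day 1, 0.573 ± 0.497 (SD, n = 3) at 4 weeks, 0.305 ± 0.528 (SD, n = 3) at 14 weeks, 1.09 ± 0.731 (SD, n = 3) at 1 year and 0.544 ± 0.943 (SD, n = 3) at 1.5 years. At every age but 1 year the SD was close to the mean or above it.

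Absence in one replicate beside many reads in another was common among genes as low as Adipoq. Within 2-fold of its mean level in whole hearts there were 2596 genes, and 1629 of them (62.8%) had, at some age, a library with 0 counts and a replicate with at least 50. In fibroblasts the same held for 1848 of 3008 genes (61.4%) within 2-fold of Adipoq's mean there. Of the 2952 genes within 2-fold of Car3's whole heart mean 15.4% did so, and of the 5051 genes near Cidea's 0.0396%. A switch between present and absent at 1 age or more was thus shared by most genes of Adipoq's level in these libraries. Adipoq was absent more often than the median gene of its level. It was at 0 counts in 7 whole hearts against a median of 4, and in 10 fibroblast libraries against 7. What part of the switch lies in the tissue sampled and what part in the libraries was not tested.

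Sorted fibroblasts held Adipoq reads in 2 of 12 libraries. These were 1 of the 3 libraries of postnatal day 1, with 123 counts (1.65 CPM), and 1 of the pair at 1.5 years, with 33 counts (0.495 CPM). The other 10 libraries, including all those of 4 weeks, 14 weeks and 1 year, had 0 counts. The highest fibroblast library was close to the highest whole heart, at 1.65 against 1.71 CPM.

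**Figure D1:**
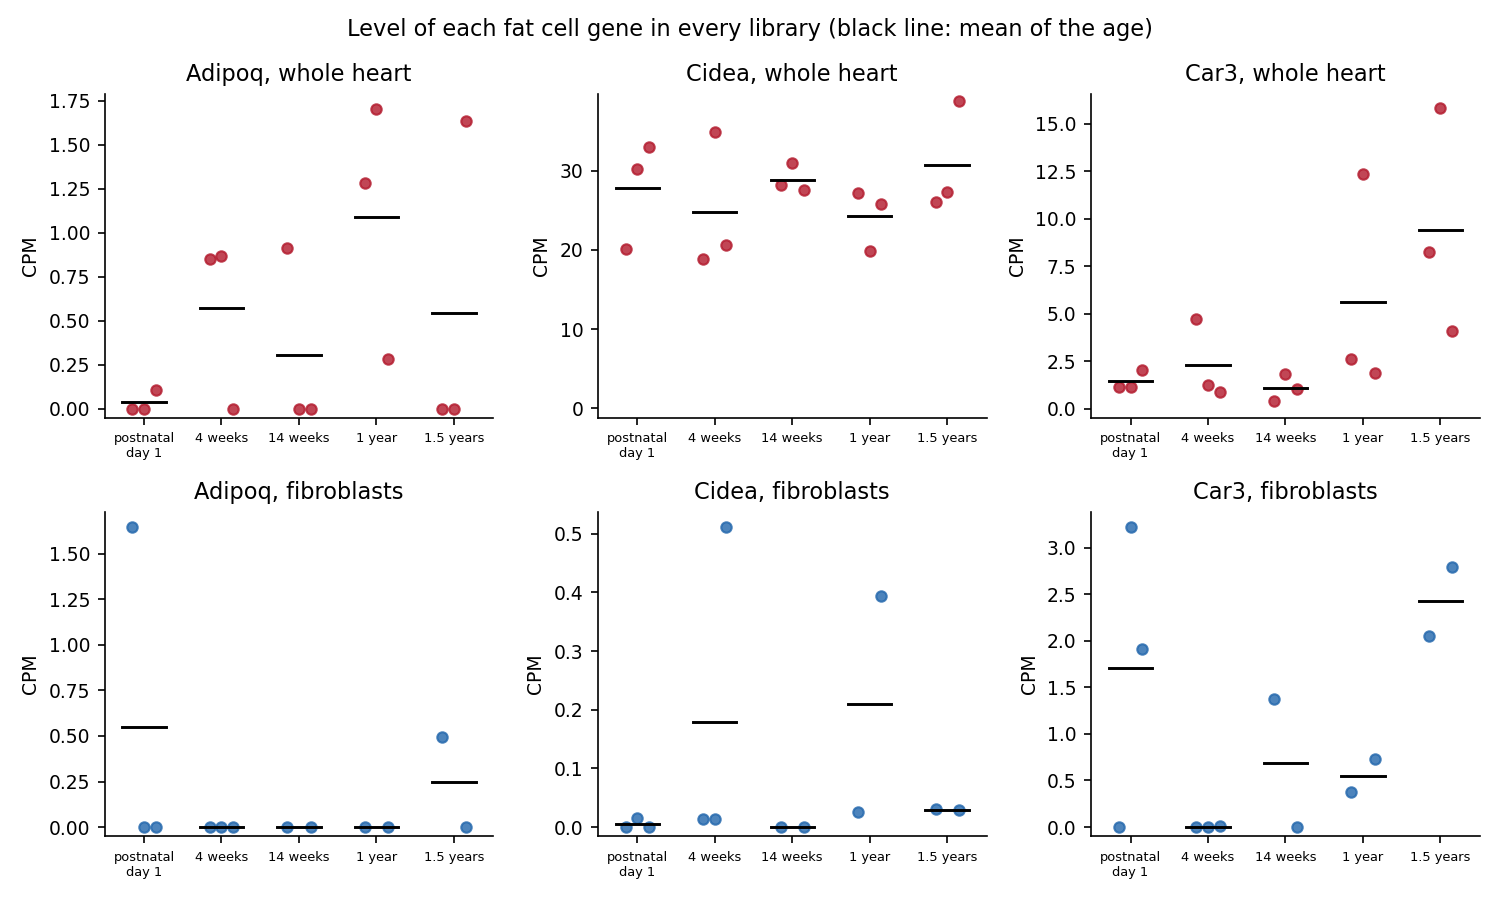
CPM of Adipoq, Cidea and Car3 in each of the 15 whole heart libraries (upper row) and 12 fibroblast libraries (lower row) by age, with a black line at the mean of each age and a separate linear axis in every panel. Adipoq is at 0 in 7 whole hearts and 10 fibroblast libraries, Cidea stays between 18.8 and 38.8 CPM in every whole heart, and Car3 is highest at 1.5 years in whole hearts, where it reaches 15.8 CPM.

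Cidea (ENSMUSG00000024526.9, chromosome 18, 67343604 to 67367785, plus strand) behaved unlike Adipoq: it was present in all 15 whole hearts, and its CPM varied less. The lowest library was at 18.8 CPM (1257 counts), the median at 27.3 CPM and the highest at 38.8 CPM (2634 counts). At postnatal day 1 the libraries were at 20.1, 30.3 and 33.0 CPM and at 4 weeks at 18.8, 34.9 and 20.7 CPM. At 14 weeks they were at 28.1, 31.0 and 27.5 CPM, at 1 year at 27.2, 19.9 and 25.7 CPM, and at 1.5 years at 26.0, 27.3 and 38.8 CPM. The libraries of 14 weeks and 1 year did not overlap, by 27.5 against 27.2 CPM, as was the case for 24.8% of all genes tested. All other pairs of ages overlapped.

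The means of Cidea ran, from the lowest, 24.3 ± 3.88 (SD, n = 3) CPM at 1 year, 24.8 ± 8.83 (SD, n = 3) at 4 weeks, 27.8 ± 6.79 (SD, n = 3) at postnatal day 1, 28.9 ± 1.84 (SD, n = 3) at 14 weeks and 30.7 ± 7.0 (SD, n = 3) at 1.5 years. Neighbours in this order differed by less than the larger SD of the pair, and so did the lowest and the highest mean. Its SD over all 15 hearts was 21.3% of its mean, against 126% for Adipoq and 117% for Car3. These values are plain CPM, and the TMM scale of the edgeR fits given below differs from it. On that scale Cidea moved upward by 0.35 (log2, SE 0.26) from postnatal day 1 to 4 weeks, where its CPM mean fell. From 4 to 14 weeks it moved upward by 0.48 (SE 0.26), and neither step passed. A lncRNA gene on the opposite strand, B430212C06Rik, overlaps Cidea and has no row. The strand setting of the counting is not given in the sources used here, so reads of these genes could not be told apart.

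In sorted fibroblasts Cidea was at or under 3 counts in 10 of 12 libraries. The exceptions were 1 library of 4 weeks with 38 counts (0.512 CPM) and 1 of 1 year with 26 counts (0.393 CPM). Every fibroblast library was below every whole heart library, the closest pair being 0.512 and 18.8 CPM, and 17.1% of the genes tested between the tissues were likewise free of overlap in one direction or the other. The summed level of the 5 cardiomyocyte genes was likewise lower in every fibroblast library than in any whole heart. Within fibroblasts, the 3 libraries of postnatal day 1 had the highest cardiomyocyte sums, 599 to 684 CPM, and 0 or 1 count of Cidea. The library with 38 counts of Cidea had a cardiomyocyte sum of 150 CPM, the highest of the 9 fibroblast libraries after postnatal day 1, and the library with 26 counts had a sum of 30.0 CPM. The part of heart muscle RNA in the Cidea level was not tested beyond these values.

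**Figure D2:**
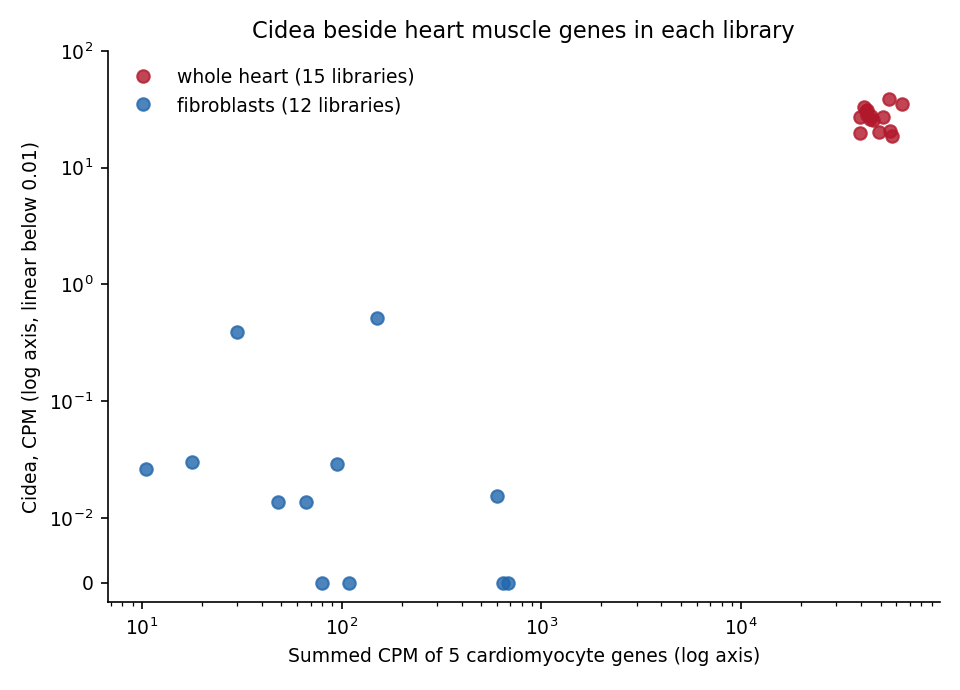
Cidea in CPM (vertical axis, logarithmic above 0.01 and linear below) against the summed CPM of 5 cardiomyocyte genes (horizontal axis, logarithmic), with 1 point per library. The 15 whole hearts form a cluster above 18 CPM of Cidea and at 39385 CPM or more of cardiomyocyte genes, and among the 12 fibroblast libraries the highest cardiomyocyte sums go with Cidea at 0 or 1 count.

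Other genes known from brown fat were read beside Cidea. Of 10 listed, 7 had rows. The summed level of the 7 was 56.1 to 267 CPM in whole hearts and 130 to 252 CPM in fibroblasts. The lowest were Otop1, which encodes a proton channel, and Zic1, a transcription factor of brown fat precursors, which were singled out after their values were seen. Each was above 3 counts in 1 of 15 whole hearts and at 0 in 14, where Cidea was never below 1153 counts. Other transcription regulators of the list were well above the limit of detection: Ppargc1a, a coactivator of mitochondrial genes also used by heart muscle, averaged 92.2 CPM, and Prdm16 averaged 19.3 CPM.

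Car3 (ENSMUSG00000027559.5, chromosome 3, 14863512 to 14872523, plus strand) was above the limit of detection in all 15 whole hearts and was the only one of the 3 genes to pass the test among all ages. It ranged from 0.388 to 15.8 CPM with a median of 1.89 CPM. At postnatal day 1 the libraries were at 1.11, 1.12 and 2.05 CPM and at 4 weeks at 4.74, 1.27 and 0.879 CPM. At 14 weeks they were at 0.388, 1.80 and 1.01 CPM. Up to this age the highest library was the 4-week heart at 4.74 CPM, and the next was at 2.05 CPM.

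At 1 year Car3 was at 2.62, 12.4 and 1.89 CPM, and at 1.5 years at 8.22, 15.8 and 4.10 CPM. Each library of 1 year was above each of 14 weeks, the nearest being 1.89 and 1.80 CPM, in a pair of ages at which 24.8% of all genes tested did not overlap. Each library of 1.5 years was above all those of postnatal day 1 and 14 weeks but not above all those of 4 weeks or 1 year. At these pairs of ages 52.6% and 30.1% of all genes did not overlap. The means, in rising order, were 1.07 ± 0.708 (SD, n = 3) CPM at 14 weeks, 1.43 ± 0.540 (SD, n = 3) at postnatal day 1, 2.29 ± 2.13 (SD, n = 3) at 4 weeks, 5.62 ± 5.84 (SD, n = 3) at 1 year and 9.38 ± 5.94 (SD, n = 3) at 1.5 years. Neighbours in this order differed by less than the larger SD of the pair. Between replicates of 1 age Car3 differed by up to 6.54-fold, whereas the 2421 genes within 2-fold of its level that were detected in every whole heart had a median largest ratio of 3.88-fold.

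Among the 5 ages of whole hearts, 1 of the 3 genes passed. The threshold was a Benjamini-Hochberg adjusted p under 0.05 over 17995 genes in the quasi-likelihood test of edgeR, which 34.3% of them met. The gene was Car3 (adjusted p = 0.0171), and the corresponding value was 0.0992 for Cidea and 0.592 for Adipoq. The call on Car3 was lost without replicate 2 of 1.5 years, its highest library (adjusted p = 0.0635), and without replicate 2 of 4 weeks Cidea passed as well (adjusted p = 0.0181). All 3 genes passed the filter on low counts in both tissues.

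None of the 3 genes passed between consecutive ages of whole hearts by edgeR or by DESeq2. Of all genes, edgeR called 18.2% from postnatal day 1 to 4 weeks, 1.61% from 4 to 14 weeks, 0.972% from 14 weeks to 1 year and 2.66% from 1 to 1.5 years. At an unadjusted p under 0.05 the count was 1 from 14 weeks to 1 year and 0 at the other 3 steps. The 1 was Car3, which moved by 2.33 on the log2 scale (SE 0.87, 95% interval 0.49 to 4.16, adjusted p = 0.227). For Adipoq the interval of the same step reached from -3.45 to 7.12 on the log2 scale, so that large differences in either direction were not detectable with these replicates. For Cidea the 4 steps lay between -0.33 and 0.48 on that scale.

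Car3 is also made by slow skeletal muscle, and lists of skeletal muscle, atrium and other neighbouring tissues were read beside Car3 and Adipoq. The summed level of 7 skeletal muscle genes was 66.8 to 99.0 CPM at postnatal day 1, 65.5 to 166 CPM at 4 weeks, 160 to 354 CPM at 14 weeks, 56.2 to 101 CPM at 1 year and 316 to 382 CPM at 1.5 years. Only 1 of these genes, Acta1, exceeded 3 counts in every whole heart, and it is also a heart muscle gene. Of the 6 skeletal muscle genes tested, edgeR called Acta1 alone at every step between consecutive ages, downward from 14 weeks to 1 year and upward at the others. From 1 to 1.5 years Actn3 had an unadjusted p under 0.05 by edgeR and was called by DESeq2 beside Acta1. The median log2 fold change of the 6 was 1.31 from 14 weeks to 1 year and 1.01 from 1 to 1.5 years, beside 2.33 and 0.59 for Car3. Acta1 averaged 172 CPM in whole hearts, beside 175 CPM for the sum, and the next gene, Mylpf, 1.00 CPM. The others tested were at 0 counts in 1 (Mylpf) to 9 (Tnnc2 and Pvalb) of the 15 hearts. The sum is therefore nearly all Acta1, and the median rests mostly on genes with few counts. No gene of the list is particular to slow skeletal muscle, where Car3 is abundant, so the list cannot show whether RNA of that muscle was present. The summed level of 5 atrial genes was 920 to 2197 CPM at postnatal day 1 and between 63.7 and 516 CPM in the 12 later hearts, and 3 of the 5 exceeded 3 counts in every heart. Most of this sum was Nppa, with a mean of 338 CPM beside 477 CPM for the sum. For 6 mesothelial genes, which mark the covering of the heart, the summed level ran from 11.7 to 158 CPM. The thymus genes with rows reached at most 1.71 CPM in sum, and Ager, the only lung gene with a row, 7.0 CPM. The part of neighbouring tissue in the Car3 and Adipoq levels was not tested further.

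In fibroblasts Car3 was above 3 counts in 7 of 12 libraries. It had 0, 210 and 122 counts at postnatal day 1 and 0, 0 and 1 at 4 weeks. The pair at 14 weeks had 75 and 0 counts, that at 1 year 29 and 48, and that at 1.5 years 137 and 194, or 2.05 and 2.79 CPM. The highest library was that of postnatal day 1 with 210 counts, at 3.22 CPM, followed by the pair of 1.5 years.

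No member passed in fibroblasts by edgeR, either among all ages (19.9% of 18759 genes called, 0 of 3 members at an unadjusted p under 0.05) or between consecutive ages. The share of all genes called was 15.5% from postnatal day 1 to 4 weeks, 3.87% from 4 to 14 weeks, 1.78% from 14 weeks to 1 year and 0.24% from 1 to 1.5 years. At an unadjusted p under 0.05, Car3 stood out at the first and the second step and no member at the later ones. Car3 at 4 weeks was at or under the limit of detection in every library, and its first step had an adjusted p of 0.073 by edgeR and 0.00151 by DESeq2. Without replicate 1 of postnatal day 1, which had no Car3 reads, edgeR also called this step (adjusted p = 0.029). The second step had an adjusted p of 0.248 by edgeR and 0.0451 by DESeq2. Its direction turned when the 14-week library with 75 counts was left out (log2 fold change -1.82).

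All 3 genes were lower in fibroblasts than in whole hearts when the ages were averaged in 1 fit of 27 libraries. The paper states that the hearts which gave the fibroblasts were sequenced too. The labels name no animal, so the fit took all libraries as independent and did not model a shared heart. Of 20650 genes tested, 56.8% differed between the tissues, so a call was the usual outcome. Cidea had the widest gap of the 3, at -10.23 on the log2 scale (SE 0.56, adjusted p = 1.4e-13), and its mean over ages was 27.3 CPM in whole hearts and 0.0848 CPM in fibroblasts. Car3 differed by -3.18 (SE 0.75, adjusted p = 0.000814), with means of 3.96 and 1.08 CPM. The values of Cidea did not overlap between the tissues, and those of Car3 did. At postnatal day 1 the order of the means was the reverse for 2 of the 3 genes. There Car3 was at 1.71 CPM in fibroblasts and 1.43 CPM in whole hearts, and Adipoq at 0.549 and 0.0353 CPM, with overlapping libraries for both. In bulk samples, fewer cells of a type and less RNA per cell cannot be told apart.

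Adipoq also passed between tissues, at -4.67 on the log2 scale (SE 1.62, adjusted p = 0.0184), but this value was unstable. Its mean over ages was 0.510 CPM in whole hearts and 0.159 CPM in fibroblasts, a ratio of 3.20, which is far smaller than the fitted value. Fibroblast libraries of 3 ages were all at 0, so the size of the fitted value depends on how zeros enter the fit and is no bound. DESeq2 gave -12.93 (adjusted p = 1.12e-10). The call was lost in 8 of the 27 fits that left out 1 library. They were the fits without whole heart replicate 3 of postnatal day 1, replicate 1 of 14 weeks or replicate 3 of 1.5 years (adjusted p = 1), and without either fibroblast library of 14 weeks, either of 1 year or replicate 5 of 1.5 years (adjusted p between 0.0522 and 0.057).

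Per kilobase of the union of its exons, which allows genes to be compared, Cidea led in whole hearts at 24.5 CPM per kb, followed by Car3 at 1.38 and Adipoq at 0.369 CPM per kb. The order in fibroblasts was Car3 at 0.363, Adipoq at 0.129 and Cidea at 0.0772 CPM per kb. The places of Adipoq and Cidea in fibroblasts rested on 1 library, the one of postnatal day 1 with 123 counts of Adipoq. Without it Adipoq was at 0.0326 and Cidea at 0.0842 CPM per kb, and most fibroblast libraries held neither gene above 3 counts.

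Whether whole hearts with Adipoq reads also held other genes of fat cells was read from the 20 further fat cell genes listed, of which 17 had rows. The 5 with a mean below 5 CPM in whole hearts, a limit set after the values were seen, were Acvr1c, a receptor kinase of fat cells, Slc7a10, an amino acid carrier used as a marker of white fat, Adrb3, the adrenergic receptor of fat cells, Cyp2e1, a cytochrome P450 also made by liver, and Pck1, an enzyme of glycerol synthesis. Above 3 counts, Slc7a10 was found in 6 whole hearts, of which 3 also held Adipoq. Adrb3 was found in 5, of which 3 held Adipoq, Pck1 in 5, of which 3 did, and Acvr1c in 4, of which 2 did. Cyp2e1 was found in 11, of which 7 did. No whole heart held all 6 genes, 4 of them held 4 genes and 1, a heart of 4 weeks, held none.

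After postnatal day 1, all 7 hearts with Adipoq reads also held Cyp2e1, as did 4 of the 5 without. Cyp2e1 was not particular to samples with Adipoq. Its median was 5.65 CPM in sorted fibroblasts, where Adipoq was at 0 in 10 of 12 libraries, against 0.691 CPM in whole hearts. In fibroblasts too it was nearly absent at postnatal day 1, with a mean of 0.00892 CPM, and at 2.81 CPM at 4 weeks. The part of fibroblast RNA in its whole heart level was not tested. The other 4 genes were found with and without Adipoq. Their means, 0.126 to 0.201 CPM, lay below the 2-fold band around Adipoq to which the 62.8% applies. How often genes of their own level switch between replicates was not counted. The heart of 1.5 years with the most Adipoq reads, 111, had 0 counts of Acvr1c, Slc7a10, Adrb3 and Pck1 and 126 of Cyp2e1. Replicate 1 of that age had 87 counts of Adrb3, the most of any, with no Adipoq and 4 counts of Cyp2e1. Its replicate 2 had 311 counts of Cyp2e1, again the most, with 34 of Pck1, 31 of Slc7a10 and no Adipoq. Replicate 2 of 1 year, with 99 counts of Adipoq, held 199 of Cyp2e1, 94 of Pck1 and 31 of Slc7a10. Slc7a10 and Acvr1c were above 3 counts in all hearts of postnatal day 1, of which 1 had Adipoq reads, and Cyp2e1 in none of these.

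**Figure D3:**
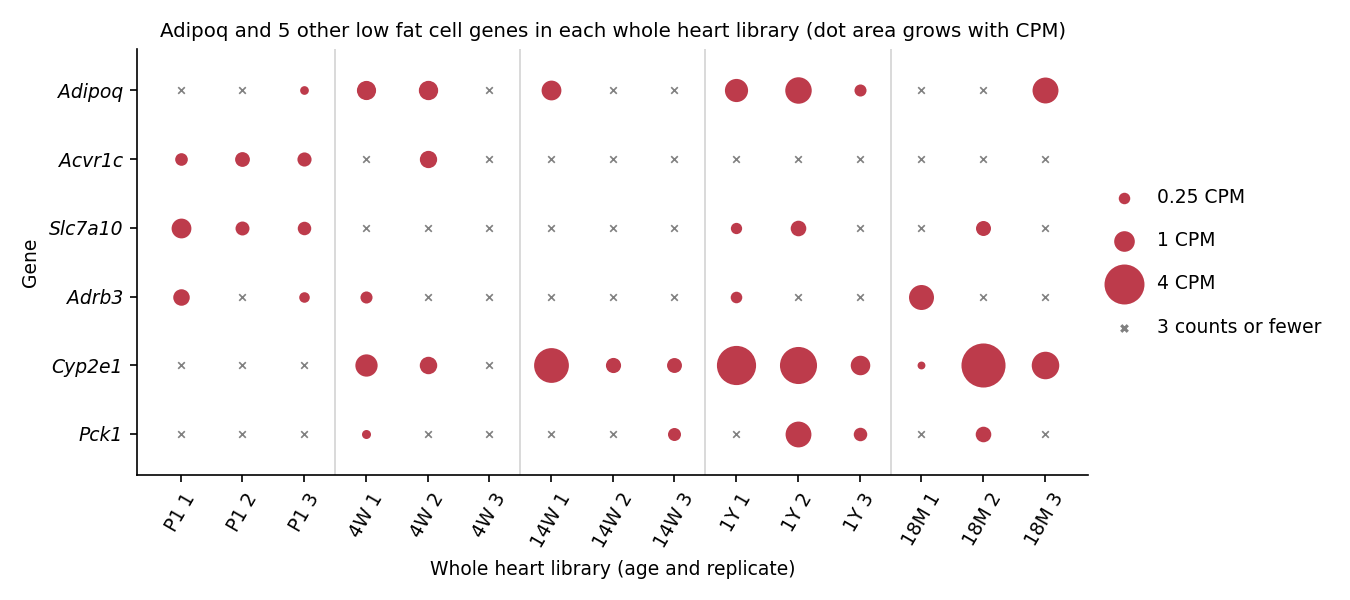
Adipoq and 5 other fat cell genes of low level in each of the 15 whole heart libraries, ordered by age and replicate on the horizontal axis, with the dot area growing with CPM and a grey cross for 3 counts or fewer. No column holds all 6 genes, and the column with 111 counts of Adipoq at 1.5 years (replicate 3) holds only Cyp2e1 besides.

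The genes whose pattern was most like that of Adipoq over the 15 whole hearts, on log2 CPM less the mean of each age, were Gm29216, Gm5786, D230017M19Rik, Tomm6os, Skida1, Ccdc32, Trem2, Reep2, Hpf1 and Rpl22l1. Their Pearson's r with Adipoq ran from 0.83 to 0.88 among 13292 genes compared, with the points of each gene sharing library and depth. No gene of the fat cell, fatty acid or brown fat lists was among them, but 6 listed genes below a mean of 1 CPM, Acvr1c, Slc7a10, Adrb3, Pck1, Otop1 and Zic1, were not compared. Cidea had an r of 0.46 (rank 1296) and Car3 of -0.07 (rank 6861). Without the 14-week and the 1.5-year heart in which Adipoq stood farthest from its age mean, r was 0.42 for Cidea and 0.38 for Car3. The highest of the 28 listed genes compared was Cyp2e1 with an r of 0.68 (rank 154), and their median r was 0.13, against -0.06 for all genes. As given above, the level of Cyp2e1 was higher in sorted fibroblasts than in whole hearts.

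The remaining fat cell genes of the list were well expressed in whole hearts, and each has known sources outside fat. Lpl, lipoprotein lipase, which frees fatty acids from blood lipoproteins and is made by heart muscle, averaged 3367 CPM. Fabp4, a fatty acid carrier also made by capillary endothelium, averaged 570 CPM. Pnpla2 and Dgat2, the enzymes that break down and build triglyceride, averaged 359 and 267 CPM. Plin4, a droplet coat protein, averaged 143 CPM and the adiponectin receptor Adipor2 91.1 CPM. These 6 genes were present in every whole heart, those without Adipoq reads included.

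From postnatal day 1 to 4 weeks, 9 of the 17 fat cell genes with rows rose in whole hearts and none fell by edgeR, which called 18.2% of all genes, and the median log2 fold change was 0.97 beside -0.09 over all genes. DESeq2 also called Slc7a10, which had 25 to 60 counts per library before and 0 after. Markers of other cell types moved at the same step: 4 of 5 cardiomyocyte genes (median 0.55), 3 of 4 endothelial genes (median 0.75) and 4 of 4 macrophage genes (median 2.02) rose, and of 5 fibroblast genes 1 rose and 2 fell. The share of mitochondrial counts was 10.8 to 13.7% at postnatal day 1 and 14.9 to 26.7% at 4 weeks. The part of these shifts in the fat cell genes was not tested. Lpl had a mean of 1287 ± 375 (SD, n = 3) CPM before and 3595 ± 694 (SD, n = 3) CPM after, a rise of 1.99 on the log2 scale (SE 0.24, adjusted p = 1.76e-05). For Dgat2 the means were 94.1 ± 24.1 (SD, n = 3) and 340 ± 74.8 (SD, n = 3) CPM, a rise of 2.35 (SE 0.19, adjusted p = 1.59e-07). Plin4 rose by 1.23 (SE 0.19, adjusted p = 0.00018) and Pnpla2 by 0.97 (SE 0.27, adjusted p = 0.0178). Scaling by library size alone, which lowered the median of all genes at this step by 0.51 on the log2 scale, kept every direction and ended the calls on Pnpla2, Aqp7 and Agpat2, and also those on Actc1 and Pln of the cardiomyocyte and Cdh5 and Pecam1 of the endothelial genes. Adipoq itself moved by 4.45 with an interval from -1.46 to 10.4 and did not pass.

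At each later step 1 fat cell gene passed by edgeR, where 1.61%, 0.972% and 2.66% of all genes did. It was Agpat2, an enzyme of triglyceride synthesis, from 4 to 14 weeks, where it rose by 0.94 (SE 0.17, adjusted p = 0.0102, and 0.0514 under scaling by library size alone). DESeq2 called Agpat2, Adrb3 and Fabp4 at this step. The mean of Fabp4 was 525 ± 93.6 (SD, n = 3) CPM at 4 weeks and 311 ± 25.8 (SD, n = 3) CPM at 14 weeks, a difference of -0.50 on the log2 scale (SE 0.14, adjusted p = 0.0957 by edgeR). From 14 weeks to 1 year Fabp4 rose by 0.83 (SE 0.14, adjusted p = 0.015), to 582 ± 37.1 (SD, n = 3) CPM. From 1 to 1.5 years Plin4 moved by -0.92 (SE 0.19, adjusted p = 0.0228), from 174 ± 39.8 (SD, n = 3) to 97.3 ± 12.2 (SD, n = 3) CPM. The median of the list was 0.23, 0.00 and -0.01 at these steps.

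Of 10 fatty acid synthesis genes, 8 changed in whole hearts from postnatal day 1 to 4 weeks, where 18.2% of all genes did, 5 upward and 3 downward, with a median log2 fold change of 0.51. Among those with the highest levels, Me1, which supplies NADPH, rose by 1.29 (SE 0.18, adjusted p = 8.36e-05). Thrsp, a lipogenic protein, rose by 2.86 (SE 0.39, adjusted p = 6.27e-05) and Mlxipl, a carbohydrate-sensing transcription factor, by 1.57 (SE 0.25, adjusted p = 0.000211). The synthase itself moved the other way: Fasn averaged 141 ± 21.6 (SD, n = 3) CPM before and 40.0 ± 3.05 (SD, n = 3) CPM after, a change of -1.30 on the log2 scale (SE 0.20, adjusted p = 0.000174). Acly, which makes cytosolic acetyl-CoA, and Srebf1, a transcription factor of lipid synthesis, went down too. The change was -0.88 (SE 0.20, adjusted p = 0.00505) for Acly. It was -0.62 (SE 0.19, adjusted p = 0.0357) for Srebf1. Fasn also passed from 4 to 14 weeks, at -0.90 (SE 0.20, adjusted p = 0.0305), and no gene of this list passed later by edgeR or DESeq2, with 0 and 1 at an unadjusted p under 0.05.

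Of the 5 brown fat genes that passed the filter in whole hearts, none passed between consecutive ages by edgeR. Prdm16 and Ppargc1a passed among all ages (adjusted p = 0.00545 and 0.0181). The youngest hearts averaged 25.8 ± 4.56 (SD, n = 3) CPM of Prdm16 and the oldest 12.3 ± 3.11 (SD, n = 3) CPM. For Ppargc1a these means were 170 ± 11.6 (SD, n = 3) and 35.7 ± 23.4 (SD, n = 3) CPM. At an unadjusted p under 0.05, 1 gene of the list stood out from 14 weeks to 1 year and 3 from 1 to 1.5 years, and DESeq2 called 1 (Prdm16) and 2 (Dio2 and Ppargc1a) at these steps and 0 at the earlier ones. Dio2, the deiodinase that activates thyroid hormone, singled out after its values were seen, did not follow the other pair. It was at 5.90 ± 1.93 (SD, n = 3) CPM at postnatal day 1, at 1.11 ± 0.177 (SD, n = 3) CPM at 1 year and at 4.67 ± 1.76 (SD, n = 3) CPM at 1.5 years, the last step being 1.99 on the log2 scale (SE 0.70, adjusted p = 0.125 by edgeR).

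**Figure D4:**
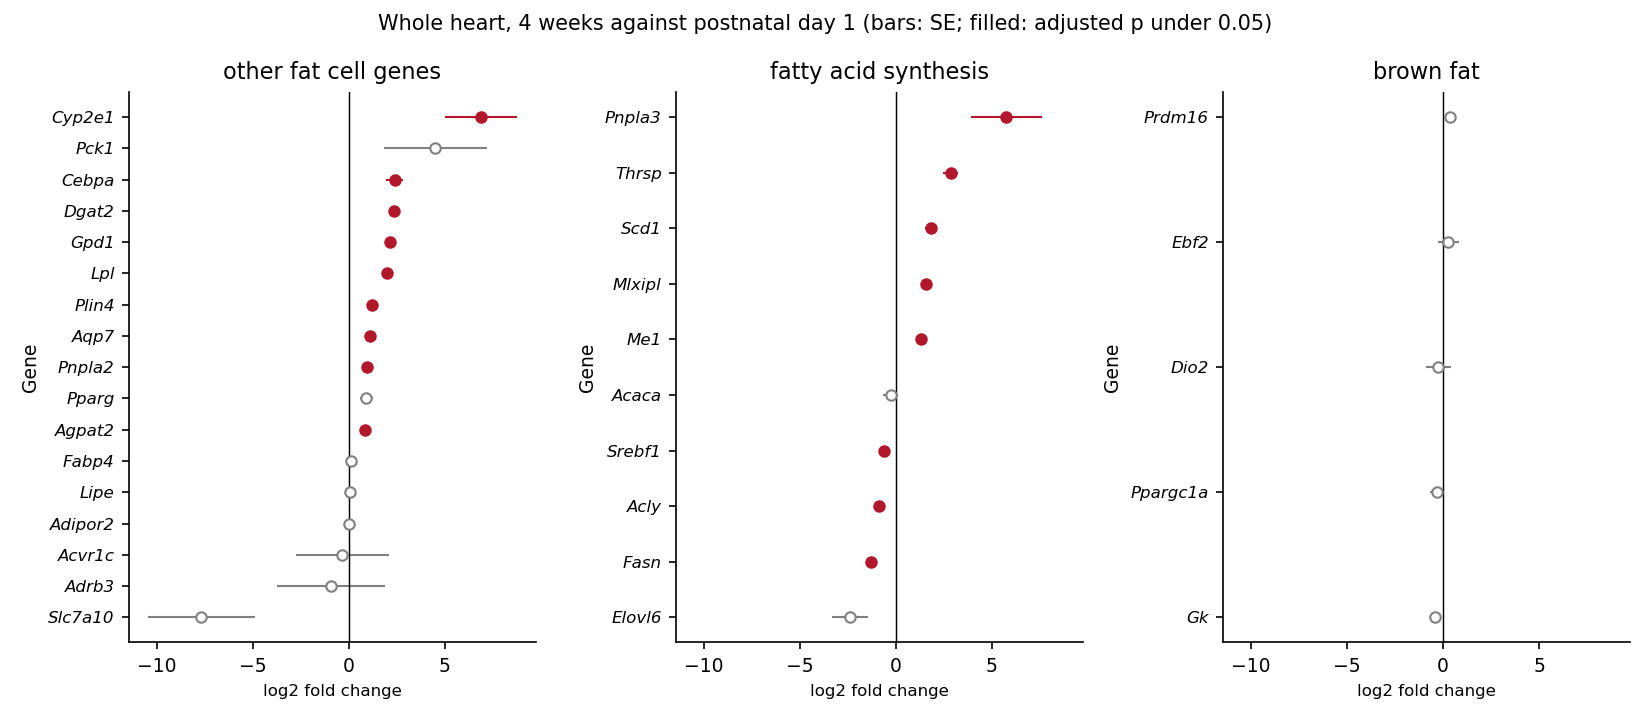
Log2 fold change from postnatal day 1 to 4 weeks in whole hearts for 3 lists of fat genes, with bars for the SE and filled red points for an adjusted p under 0.05. In the fat cell list all 9 filled points lie to the right of 0, in the fatty acid synthesis list 5 lie to the right and 3 to the left, and no brown fat gene is filled.

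Within fibroblasts, 3 of 16 fat cell genes tested passed from postnatal day 1 to 4 weeks, 2 from 4 to 14 weeks, 1 from 14 weeks to 1 year and 0 from 1 to 1.5 years. Of 10 fatty acid synthesis genes the counts were 3, 2, 1 and 0, and of 6 brown fat genes 1, 0, 0 and 0. Over all genes the shares called at these steps were 15.5%, 3.87%, 1.78% and 0.24%, so the 3 of 16 at the first step were close to the background. At the last step no gene of the 3 lists had an unadjusted p under 0.05 or was called by DESeq2, and for the brown fat list this held from 4 weeks on.

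Between tissues, 13 of the 17 fat cell genes differed, 10 lower and 3 higher in fibroblasts, with a median of -1.26 on the log2 scale beside -0.01 over all genes. Of all genes 56.8% differed between the tissues. Dgat2, at -6.87 (SE 0.33, adjusted p = 5.51e-15), and Plin4, at -5.77 (SE 0.29, adjusted p = 1.67e-14), had the widest gaps of the list. The 3 that were higher were Slc7a10, Cyp2e1 and Cebpa, a transcription factor of fat cell differentiation. Slc7a10 was above 3 counts in all 12 fibroblast libraries, with a median of 1.12 CPM, although it marks white fat cells and although Adipoq was at 0 in 10 of these libraries. All 10 fatty acid synthesis genes differed, 6 of them higher in fibroblasts, Fasn by 1.99 (SE 0.09, adjusted p = 1.23e-15). Scaling by library size alone raised the median of all genes by 0.29 in this comparison, kept every direction and ended the call on Lipe, a lipase (adjusted p = 0.0508).

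**Figure D5:**
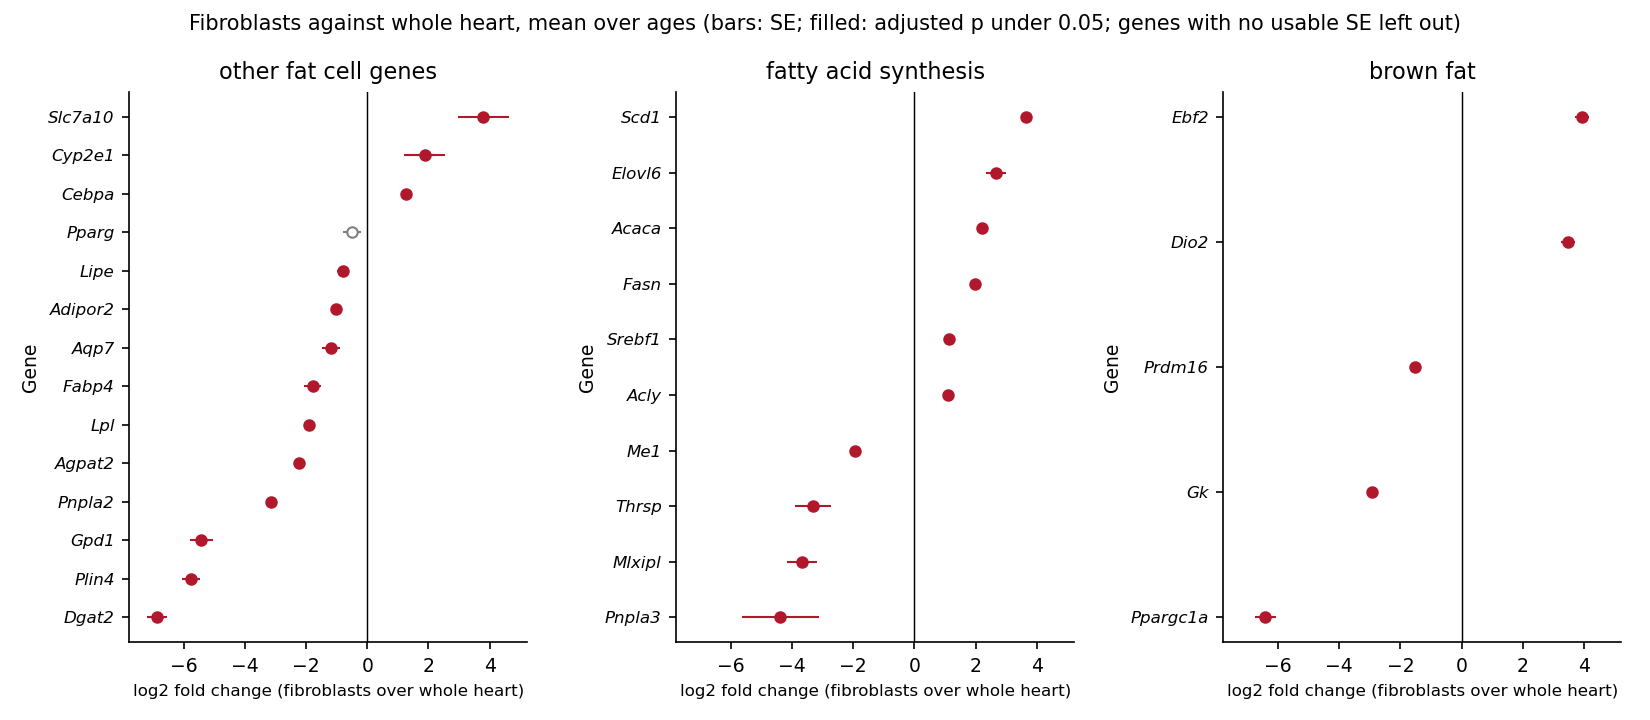
Log2 fold change of fibroblasts over whole hearts, averaged over ages, for the same 3 lists, with bars for the SE and filled red points for an adjusted p under 0.05. Dgat2 at -6.87 and Ppargc1a lie farthest to the left, and Scd1, Slc7a10, Dio2 and Ebf2 farthest to the right. Genes without a usable SE are left out.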

How the data were processed

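Gene expression was measured by RNA-Seq of polyA RNA in whole hearts and sorted PDGFRα cardiac fibroblasts. The authors mapped single-end reads of 65 bases to mm10 with STAR 2.5.3a, per their methods and processing notes, and deposited raw counts per gene without normalization. The annotation and strand column are not given in the sources used here. All 27 libraries were used, and no pair of a tissue held identical counts. The methods state 3 animals and 3 fibroblast sets from different hearts per age, whereas the labels show 2 fibroblast libraries at each later age.

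The 8 genes and the other lists were chosen with earlier results of these data known. Each tissue was fitted with edgeR 4.0.16 in R 4.3.3 with age as the only factor, filterByExpr, TMM scaling and the quasi-likelihood F test, and the tissues were compared in a joint fit. SE was taken as the size of a log2 difference over the root of its F value. A gene passed at a Benjamini-Hochberg adjusted p under 0.05 over all genes tested. CPM used plain totals, so it is not on the TMM scale of the fold changes.

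Values of members are given in full. Of other lists, up to 6 genes per list were named, those with the highest mean CPM that passed in whole hearts, and the exceptions are stated. Genes like Adipoq were the 10 with the highest Pearson's r over whole hearts at a mean of at least 1 CPM, on log2 CPM with a prior count of 2. Coordinates and exon lengths came from GENCODE M21 on GRCm38, the build of mm10. Alternatives were DESeq2 1.42.0, other scalings and filters, only the ages compared, a replicate block and leaving out each replicate. Tables were handled with pandas 2.3.3 in python 3.11.15.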

Additional observations from a re-analysis of the deposited data

How the results depend on the processing

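The number of members that passed stayed within 1.5 times of the count reported, under the alternatives run, in 8 of the 11 comparisons. In all of these but the comparison of tissues the count was 0 throughout, where such a ratio says little. Between tissues the count ran from 2 to 3 over the fits that left out 1 library, since the call on Adipoq was lost in some. With DESeq2, 1 member (Car3) passed in fibroblasts at 4 weeks against postnatal day 1 and 1 (Car3) at 14 against 4 weeks, against 0 by edgeR. Leaving out each library in turn gave between 0 and 2 members among all ages of whole hearts and between 0 and 1 in fibroblasts at 4 weeks against postnatal day 1. The log2 fold change of Car3 in fibroblasts from 4 to 14 weeks ran from -1.82 to 8.48 over these fits. With at least 10 counts required in every sample, none of the 3 genes could be tested between tissues. The whole heart fit with a replicate block left 1 member called among all ages, Car3 (adjusted p = 0.0379), and changed no other call on a member. Same-numbered whole hearts of different ages had correlations between -0.06 and 0.10, and 3 of 15 were nearest to their own number, so the numbers were not taken as pairs. No block was fitted in fibroblasts, whose later ages carry other numbers. Counts over all genes moved more: from 14 weeks to 1 year in whole hearts, 175 genes passed, against 1458 with only these ages fitted and 7 without replicate 1 of 1 year. Depth set the limit of detection, 3 counts, beside a highest Adipoq value in whole hearts of 111. Replicates 2 and 3 of 1.5 years, with 63719114 and 67969823 counts in all, had 0 and 111 of Adipoq. The causes of these shifts were not tested.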
